A study of Mus musculus with 74 samples.

Results

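Mouse embryonic fibroblasts given 4 Dox-inducible factors were followed over the course of Dox, and the late libraries (days 12 and 18) were compared with the early ones (days 4 and 8). The libraries were chosen by their labels alone: they are the 8 of the whole series' 74 samples that carry Brn4, Klf4, c-Myc and the engineered Sox17 variant eSox17FNV (called BKM_FNV here), were grown in NSC medium and still had Dox. There are 4 late and 4 early libraries, 2 at each day. The cells were fibroblasts with a Sox2-GFP reporter, transduced with M2rtTA, the transactivator that Dox switches on, and with Dox-inducible lentiviruses of the factors. NSC medium, a serum-free medium with 10 ng/mL bFGF and 10 ng/mL EGF, was given from day 0 with 1 µg/mL Dox. The 3 cocktails set beside BKM_FNV had the same fibroblasts, medium, days and Dox and 8 libraries each: BKM_Sox17 and BKM_Sox2 carried Sox17 or Sox2 in place of eSox17FNV, and K_FNV carried Klf4 and eSox17FNV alone. RNA is that of the culture, and the sources used here give no number of cells that took up every virus. The labels do not say whether the 2 libraries of a day came from separate cultures, so p-values measure the spread between these libraries, which may be technical.

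Reprogramming factors are introduced into fibroblasts to replace their expression programme with that of another cell type. Fibroblasts are mesenchymal cells, and many routes of reprogramming begin with a mesenchymal-to-epithelial transition, in which cells gain junctions, keratins and adhesion molecules such as EpCAM. Oct4, the product of Pou5f1, is a transcription factor of pluripotent cells. The MCM proteins, Mcm5 among them, form the helicase that is loaded on DNA before replication and that marks cells able to divide.

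The values are normalised tag counts, and every BKM_FNV library has the same median of 166 and the same maximum of 78139. A value therefore places a gene relative to the other genes of its library, and the highest genes share a few recurring values. Read depth is unknown, and a gene without reads is called listed at 0. Replicates of a day correlated at 0.945 to 0.948 on the log2 scale across genes, libraries of different days at 0.876 to 0.944, and no library stood apart. Between 9.56% and 11.5% of genes were listed at 0.

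Late and early libraries differed widely and in both directions. Of 19728 genes tested, 3142 (15.9%) changed, meaning that the adjusted p was under 0.05 (limma with Benjamini-Hochberg adjustment) and the change at least 2-fold on the scale of log2(value + 2), on which all fold changes stand. Of these, 1595 genes (8.08%) rose and 1547 (7.84%) fell, and the median over all tested genes was -0.02. With every library of the table in the fit, 1 of which stands apart, 1737 genes were called, and 3190 without that library. Among the genes that rose, 1278 had all 4 late libraries above all 4 early ones, and among those that fell 1228 had them all below. Over all tested genes, 16.6% had every late library above every early one and 17.0% every late library below.

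Genes with a mean of at least 500 over the 8 libraries, a limit set after the values were seen, show which abundant transcripts moved furthest. Col15a1, a collagen of basement membranes, stood at 2971, 2710, 4278 and 5239 in the late libraries, against 8, 8, 605 and 954 in the early ones (log2 5.39 ± 0.35 SE). Lcn2, a secreted iron-siderophore binding protein, stood at 3559, 2491, 4017 and 3715, against 5, 2, 1111 and 1596 (log2 5.34 ± 0.32). In both genes the early group is split by day, with the day 4 libraries far below those of day 8. Next came Apoe, a lipid carrier (log2 4.74 ± 0.32), Aldoc, an aldolase isoform (4.48 ± 0.33), the proteoglycan gene Spock2 (4.00 ± 0.19), the collagen gene Col6a6 (4.00 ± 0.43), the IGF-binding protein gene Igfbp2 (3.96 ± 0.38) and Txnip, whose product restrains glucose uptake (3.83 ± 0.15). Epcam was the ninth of these 15 (log2 3.62 ± 0.25), and complement C3 (3.44 ± 0.22), the gelatinase gene Mmp9 (3.61 ± 0.32) and Slc16a3, a lactate exporter (3.49 ± 0.27), were also among them.

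The largest decrease at that level was that of Tubb3. This gene, of a tubulin best known from neurons, stood at 583, 216, 64 and 65 in the late libraries, against 2122, 2208, 2753 and 2820 in the early ones (log2 -4.00 ± 0.30). The late libraries are all below the early ones, and those of day 18 are the lowest. Mybl2, a transcription factor of dividing cells, fell (log2 -3.57 ± 0.23), as did Espl1, which encodes separase (-3.41 ± 0.23), and the mitotic kinase gene Plk1 (-3.04 ± 0.27). Lama1, the laminin alpha1 chain of early basement membranes, stood at 1106, 556, 105 and 106, against 1844, 1626, 2701 and 2491 (log2 -2.87 ± 0.19). Rrp12 and Pop1, which act in the processing of ribosomal and other structural RNAs, had changes of -2.73 ± 0.15 and -2.61 ± 0.16, and Rrm2, the ribonucleotide reductase subunit, of -2.62 ± 0.13. By fold alone, without that limit, 16 of the 20 largest changes were in genes that were listed at 0 in at least 1 of the 8 libraries and at 100 or more in another, such as Vmn2r30 (376, 288, 331 and 588 late, and at 0 in all 4 early libraries). Of all 19728 tested genes 558 jump in this way, and 110 of the 3142 that changed, and no fold change is given for them here.

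Each of the 3 marker genes had changed by day 8, and 2 of them changed again by day 12. Pou5f1 (chromosome 17, 35506032 to 35510777 in GRCm38) stood at 687, 1202, 755 and 1850 in the late libraries, against 2, 9, 796 and 918 in the early ones, a log2 change of 3.78 ± 0.35 (adjusted p = 3.7e-08). The day 8 libraries lie within the late range, so late and early overlap, and the change is that from day 4 (day 8 over day 4 log2 7.01, later steps 0.09 and 0.38, neither past the test). Epcam (chromosome 17, 87635979 to 87651127) stood at 2180, 2478, 1953 and 3762, against 50, 41, 787 and 981 (log2 3.62, adjusted p = 1.2e-09), and it rose in both the day 8 over day 4 step (4.22) and the day 12 over day 8 step (1.40). Mcm5 (chromosome 8, 75109468 to 75128439) stood at 302, 251, 194 and 208, against 2204, 2295, 993 and 1083 (log2 -2.69 ± 0.16, adjusted p = 2.1e-10). It fell in the same steps as Epcam rose, by 1.11 and then 1.91, and its late and early libraries do not overlap. Day 18 against day 12 passed the test for none of the 3. Because these are whole cultures, fewer cells of a type and less RNA per cell cannot be told apart here or below.

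**Figure D1:**
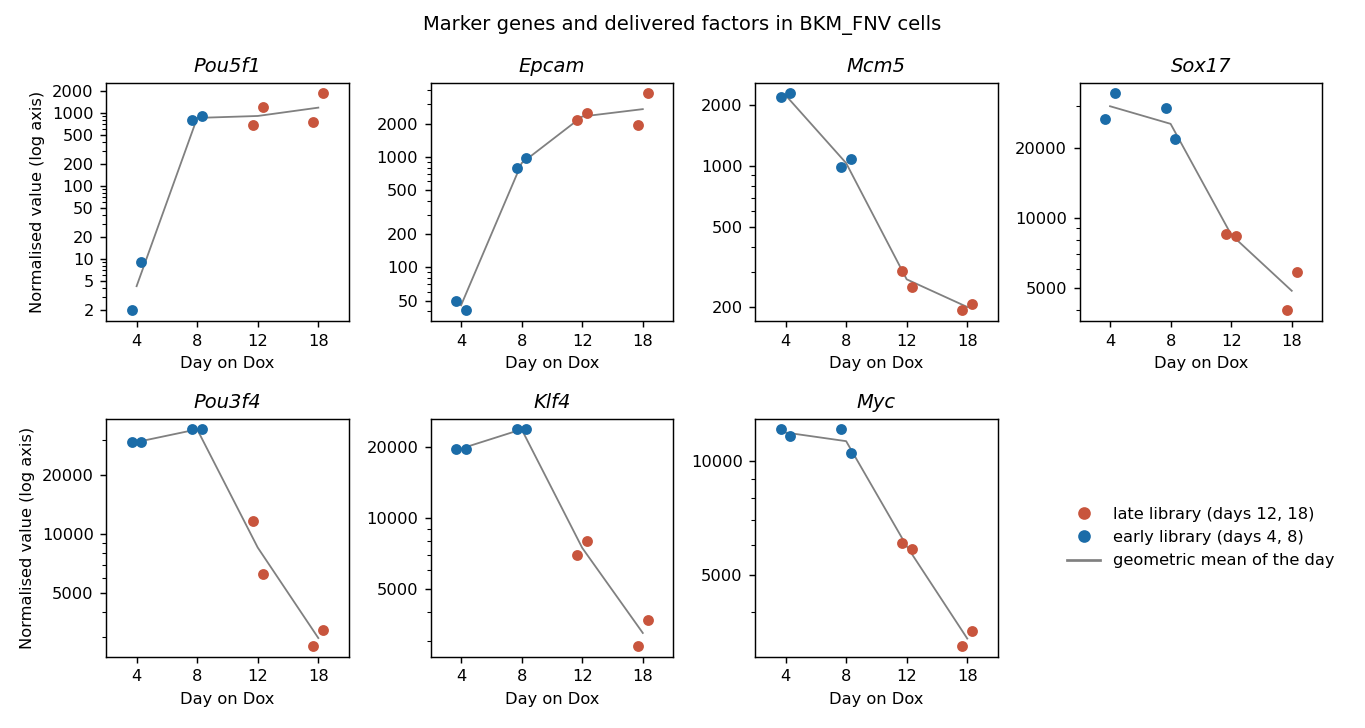
Normalised value (vertical log axis) of 3 marker genes and the 4 delivered factors at days 4, 8, 12 and 18 of Dox in BKM_FNV cells, with 1 point per library and a line through the geometric mean of each day. Pou5f1 is already at 796 and 918 on day 8, Epcam goes on to 2180 and 2478 on day 12, and Mcm5 and all 4 factors lie lower in every late library than in any early one.

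All 4 delivered factors fell while Dox was still present. Sox17, whose value here includes eSox17FNV, stood at 8534, 8385, 4018 and 5876 in the late libraries, against 26505, 34130, 29410 and 21719 in the early ones (log2 -2.10 ± 0.15). Pou3f4, the gene of Brn4, stood at 11686, 6257, 2702 and 3253, against 29410 and 29410 at day 4 and 34130 and 34130 at day 8 (log2 -2.65 ± 0.19). Klf4 stood at 6994, 8000, 2863 and 3693, against 19770, 19770, 23871 and 23871 (log2 -2.14 ± 0.11), and Myc at 6067, 5874, 3252 and 3558, against 12147, 11685, 12147 and 10520 (log2 -1.36 ± 0.09). Day 8 against day 4 passed the test for none of the 4. Sox17, Pou3f4 and Klf4 fell by 1.58, 2.00 and 1.67 at day 12 against day 8, and Pou3f4 and Klf4 by a further 1.53 and 1.20 at day 18 against day 12. The table has 1 row per gene, so transcripts of the virus and of the cell's own gene cannot be told apart. Part of each decrease lies at the top of the value range, where values recur and identical replicates are not a sign of precision.

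Of 26 tested genes of naive and core pluripotency, 9 rose at day 8 over day 4 and none fell (median 1.5). In that step 6.20% of all tested genes rose and 4.12% fell. Late against early, 6 of the 26 rose (23.1%), 3 fell (11.5%) and 17 did not pass the test, where 8.08% of all tested genes rose and 7.84% fell. Beside Pou5f1, those that rose were low-level genes: Tfcp2l1, a transcription factor of naive cells, stood at 209, 186, 214 and 380 in the late libraries, against 16, 24, 141 and 131 in the early ones (log2 2.13 ± 0.19). Tdgf1, a Nodal co-receptor, stood at 28, 74, 96 and 131, against 19, 0, 15 and 25, and Gdf3, a TGF-beta family ligand, at 22, 28, 21 and 47, against 0, 2, 17 and 12. Dppa5a and Dppa3, known from germ cells and early embryos, appeared late: Dppa5a was at 23 and 24 on day 12 and 97 and 119 on day 18, and at 0 in all 4 early libraries, while Dppa3 was at 23 and 0, then 93 and 87, and at 0 in all 4 early libraries. Lin28a, an RNA-binding protein, was high on day 8 alone, at 12, 8, 12 and 16 late against 9, 12, 100 and 122 early. Tdh, a threonine dehydrogenase of pluripotent mouse cells, was also highest on that day, at 136, 87, 28 and 50 late against 128, 127, 679 and 631 early, and Sall4 fell by 1.01. Nanog stood at 230, 198, 190 and 249, against 69, 85, 312 and 275, and its late against early change of 0.51 ± 0.45 did not pass the test, although it rose by 1.91 between days 4 and 8. The cell's own Sox2 stayed low, at 20, 9, 47 and 52 against 14, 31, 18 and 26 (0.28 ± 0.53, not past the test).

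The formative and primed list had 9 tested genes, of which 4 rose and none fell, and 2 rose with every library of the table in the fit. Cldn6, a claudin of pluripotent and early epithelial cells, stood at 177, 290, 404 and 790 in the late libraries, against 47, 40, 59 and 98 in the early ones (log2 2.60 ± 0.31), and rose at both later steps. The Nodal inhibitor gene Lefty2 stood at 318, 118, 60 and 148, against 14, 6, 134 and 138 (1.80 ± 0.33), so that late and early overlap. Lefty1 and Otx2 were the others, Lefty1 at 37 or lower and Otx2 at 15 or lower in every library. Nodal, T, Sox3 and Foxd3 did not reach the level needed for testing, and Fgf5, the usual marker of formative cells, stood at 5 to 12 late and 9 to 31 early.

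Epithelial genes rose in number, most of them by day 8. Of 24 genes of epithelial adhesion and junctions 13 rose (54.2%) and none fell, with a median of 1.19. Cldn4, a tight junction claudin, stood at 3167, 3666, 2653 and 3595 in the late libraries, against 72, 84, 2004 and 2276 in the early ones (log2 2.98 ± 0.25). Spint1, a protease inhibitor of epithelial surfaces, stood at 472, 513, 335 and 653, against 12, 12, 166 and 235 (3.19 ± 0.26). Late and early libraries do not overlap in either. Krt18, a keratin of simple epithelia, was later than the rest, at 918, 1034, 1244 and 2386, against 103, 77, 236 and 204 (3.19 ± 0.28), and rose by 2.14 at day 12 over day 8. Cdh1, the gene of E-cadherin, stood at 1990, 1972, 1605 and 2363, against 357, 274, 2341 and 2363 (1.19 ± 0.17), with day 8 already within the late range. Krt8, the usual partner of Krt18, and the desmosome gene Dsp were most abundant on day 8 (10768 and 11685, and 8134 and 7645) and their late against early changes (0.07 and -0.20) did not pass the test.

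Day 8 against day 4 gives the same group more directly: 22 of the 24 rose and none fell (median 2.54), where 10.3% of all tested genes changed, 6.20% upwards and 4.12% downwards. In the next step, where 7.62% of all genes changed, 3.95% upwards and 3.66% downwards, only Epcam, Krt18 and Spint1 of the 24 rose, and in the last step, with 3.08% of all genes, none changed. The steps share libraries, since day 8 and day 12 each stand in 2 of them. Of 9 tested epithelial regulators, 6 rose by day 8. Late against early, Esrp1, a splicing factor of epithelia, rose (707, 761, 608 and 987 against 115, 100, 707 and 693; log2 1.45 ± 0.15), as did Elf3, and Ovol1 and Grhl3 fell, by 1.31 and 1.08.

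**Figure D2:**
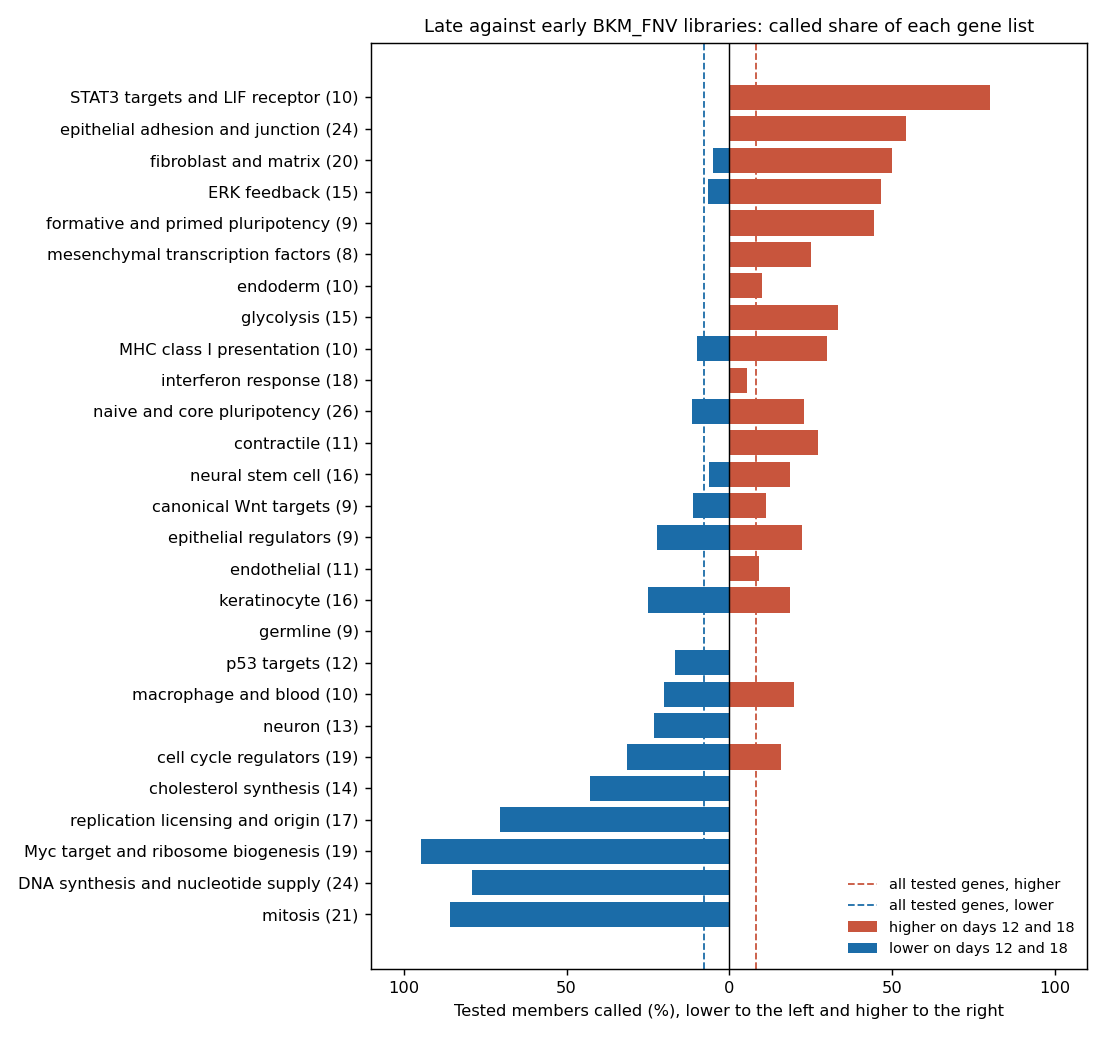
Share of tested members (horizontal axis, percent) that changed in late against early BKM_FNV libraries, for each gene list with at least 8 tested members (their number in brackets), higher to the right and lower to the left, sorted by median change. Dashed lines mark the shares over all tested genes, 8.08% higher and 7.84% lower. Lists of division and ribosome synthesis reach 70.6% to 94.7% lower, and the STAT3 list 80% higher.

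Most genes of DNA replication and cell division fell. Of 17 genes of replication licensing and origins 12 fell and none rose (70.6%, median -1.23), of 24 genes of DNA synthesis and nucleotide supply 19 fell (79.2%, median -1.52), and of 21 mitosis genes 18 fell (85.7%, median -1.67). With every library of the table in the fit, including the 1 that stands apart, 10, 7 and 11 of these were called, and 12, 19 and 18 without that library. Beside Mcm5, the helicase genes Mcm2, Mcm3, Mcm4, Mcm6 and Mcm7 all fell, from a log2 change of -2.11 ± 0.18 for Mcm2 to -1.12 ± 0.07 for Mcm4. Mcm2 stood at 1008, 519, 353 and 469 in the late libraries, against 3007, 3007, 1845 and 1826 in the early ones. Cdt1, which loads the helicase, stood at 522, 312, 263 and 210, against 1821, 2122, 1224 and 1291 (-2.34 ± 0.19). The thymidine kinase gene Tk1 stood at 77, 58, 66 and 41, against 881, 871, 306 and 302 (-3.09 ± 0.15), and had the largest change of the 3 lists.

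Plk1 stood at 101, 137, 132 and 129 in the late libraries, against 1887, 1952, 685 and 449 in the early ones, and Cdc20, the activator of the anaphase-promoting complex, at 594, 709, 471 and 514, against 2832, 3107, 1589 and 1593 (-1.94 ± 0.20). Each of these genes is lower in every late library than in any early one. The decrease had 2 steps: 23 genes of the 3 lists fell by day 8 against day 4 and 29 by day 12 against day 8, but only Uhrf1, a reader of hemimethylated DNA, at day 18 against day 12. Mki67, the gene of the proliferation antigen Ki-67, still stood at 1220, 1148, 1127 and 999 late against 4851, 4328, 2740 and 2239 early.

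Promoters of 4 of these genes are shown as examples, because their start sites carry different short motifs. The lists did not share their steps evenly. At day 8 against day 4, 3 of 17 licensing, 9 of 24 DNA synthesis and 11 of 21 mitosis genes fell. At day 12 against day 8 the numbers were 7, 10 and 12. RefSeq promoter windows (GRCm38.p6, 250 bases before to 50 after the start) were found for 12 licensing, 20 DNA synthesis and 17 mitosis genes and for 14010 tested genes in all. A window follows the start site of the promoter table, which for Mcm5 lies inside the gene's coordinates given above. Capitals mark an E2F-like core (TTTNNCGC), the CHR element TTTGAA and the CCAAT box, each searched on both strands. E2F factors are known to bind at replication genes, and CHR and CCAAT elements are known from promoters of mitotic genes.
Mcm5 (chr8:75109259-75109558, plus strand): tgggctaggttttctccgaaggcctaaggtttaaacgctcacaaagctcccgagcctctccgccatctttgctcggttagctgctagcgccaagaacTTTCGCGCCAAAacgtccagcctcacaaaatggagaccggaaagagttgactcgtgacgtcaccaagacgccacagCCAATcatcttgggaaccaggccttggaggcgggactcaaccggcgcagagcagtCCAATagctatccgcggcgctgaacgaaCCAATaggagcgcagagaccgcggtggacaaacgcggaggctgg
Mcm6 (chr1:128359656-128359955, minus strand): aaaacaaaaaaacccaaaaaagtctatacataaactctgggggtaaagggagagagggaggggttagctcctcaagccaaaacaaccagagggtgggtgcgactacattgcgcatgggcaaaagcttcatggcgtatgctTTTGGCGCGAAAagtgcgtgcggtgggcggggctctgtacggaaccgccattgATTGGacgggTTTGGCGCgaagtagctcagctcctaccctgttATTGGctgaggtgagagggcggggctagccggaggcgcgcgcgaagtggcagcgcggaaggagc
Plk1 (chr7:122159185-122159484, plus strand): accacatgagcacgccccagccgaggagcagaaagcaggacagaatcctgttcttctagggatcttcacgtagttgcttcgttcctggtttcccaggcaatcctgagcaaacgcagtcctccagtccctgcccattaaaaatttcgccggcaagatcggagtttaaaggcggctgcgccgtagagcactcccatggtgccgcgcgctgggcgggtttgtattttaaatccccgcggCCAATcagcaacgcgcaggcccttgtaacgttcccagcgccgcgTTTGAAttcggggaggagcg
Cdc20 (chr4:118437294-118437593, minus strand): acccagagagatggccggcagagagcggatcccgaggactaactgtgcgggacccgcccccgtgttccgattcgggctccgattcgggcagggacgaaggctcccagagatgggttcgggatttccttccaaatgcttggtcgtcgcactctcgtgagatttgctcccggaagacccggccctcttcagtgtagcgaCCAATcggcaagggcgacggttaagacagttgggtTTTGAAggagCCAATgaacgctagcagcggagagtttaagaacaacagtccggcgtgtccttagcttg
The E2F-like core was found for 8 of the 12 licensing genes (66.7%), 6 of the 20 DNA synthesis genes (30%) and 1 of the 17 mitosis genes (5.88%). The share was 8.13% over all genes with a window. It was 35.7% (5 of 14) for the ribosome synthesis and Myc target genes described below. The CHR letters were found for 12 of the 17 mitosis genes (70.6%), 3 of the 12 licensing genes (25%) and 1 of the 20 DNA synthesis genes (5%), against 17.1% of all. CCAAT was found for 10 of the 12 licensing, 10 of the 20 DNA synthesis (50%) and 15 of the 17 mitosis genes, against 42.5% of all. The letters CACGTG (E-box), searched but not marked, were found for 6 of the 20 DNA synthesis genes (30%), 0 of the 12 licensing genes and 1 of the 17 mitosis genes, against 10.1% of all. Of the 14 ribosome synthesis and Myc target genes, 2 had the E-box letters (14.3%), 2 CHR (14.3%) and 3 CCAAT (21.4%). Among 17 genes of epithelial adhesion and junctions, 1 had the E2F-like core (5.88%), 2 CHR (11.8%), 4 CCAAT (23.5%) and 2 the E-box (11.8%). In Mcm5 the E2F-like core occurs on both strands with overlapping letters. A match is a description of letters in the window and shows no binding.

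Inhibitors of the cell cycle were among the genes that rose. Of 19 cell cycle regulators 3 rose (15.8%) and 6 fell (31.6%), where 8.08% of all tested genes rose and 7.84% fell. Cdkn1b, the gene of p27, stood at 1345, 2061, 2820 and 2832 in the late libraries, against 608, 581, 570 and 617 in the early ones (log2 1.87 ± 0.14). Cdkn2b, the gene of p15, stood at 923, 1004, 1065 and 1135, against 259, 272, 368 and 383 (1.70 ± 0.10), and Cdkn2a, which encodes p16 and p19Arf, at 4963, 7448, 6162 and 6372, against 1832, 2099, 2989 and 2972 (1.35 ± 0.11). All 3 rose at day 12 over day 8 and lie above every early library. The 6 that fell were E2f1, E2f2, E2f7, E2f8, Ccne1 and Cdc25a, E2f2 furthest (-2.16). Cdkn1a, the gene of p21 and a p53 target, stood at 9477, 9808, 7807 and 7807, against 7807, 7807, 10066 and 9808, with a change of -0.02 ± 0.06 that did not pass the test. Of 12 p53 targets none rose and 2 fell, Sesn2 by 1.01 and the low-level Gdf15 by 1.26. Only 1 gene was called without replicate 2 of day 12, replicate 1 of day 18, replicate 2 of day 4 or either replicate of day 8.

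Of 19 genes of ribosome synthesis and other Myc targets, 18 fell and none rose (94.7%, median -1.46), the largest share of any list with more than 4 tested members. The count was 10 with every library of the table in the fit, and 18 without the library that stands apart. Ncl, the gene of nucleolin, stood at 16291, 16291, 12929 and 12929 in the late libraries, against 44404, 44404, 34130 and 29410 in the early ones (log2 -1.37 ± 0.11). The RNA helicase gene Ddx21 stood at 3762, 3341, 2436 and 2768, against 12547, 12547, 9809 and 9809 (-1.87 ± 0.11), and Cad, which begins pyrimidine synthesis, at 2701, 1972, 1083 and 1148, against 8954, 8533, 5959 and 5587 (-2.15 ± 0.15). Srm, the spermidine synthase gene, and Bop1 and Nle1, which act in the assembly of the large ribosomal subunit, had changes of -2.06, -2.24 and -2.40. Late and early libraries do not overlap for any of these. Npm1, the gene of nucleophosmin, was the one not called, at 16291 in all 4 late libraries against 19770, 19770, 16291 and 16291. Of the 18, 2 fell at day 8 against day 4 and 9 at day 12 against day 8, the step in which the Myc value was 0.92 lower, short of the 2-fold limit.

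**Figure D3:**
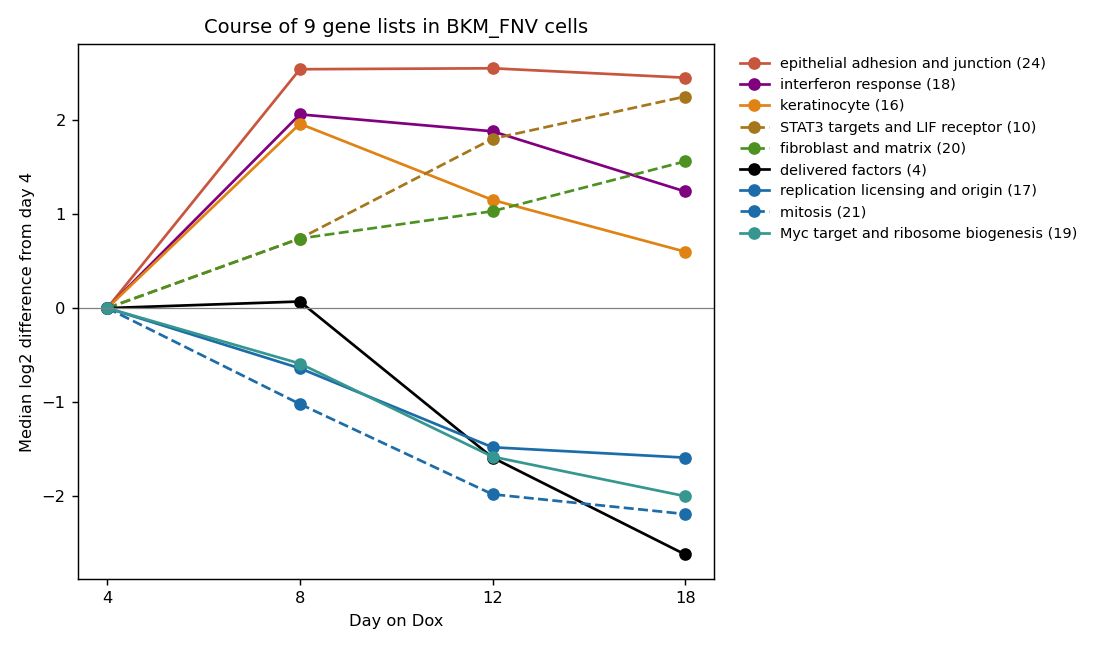
Median log2 difference from day 4 (vertical axis) over the tested members of 9 gene lists at days 4, 8, 12 and 18 of Dox in BKM_FNV cells, with the number of members in brackets. Epithelial, interferon and keratinocyte genes reach 2.54, 2.06 and 1.96 by day 8, and the delivered factors are at 0.07 on that day and at -1.59 and -2.62 on days 12 and 18.

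Fibroblast genes rose as well. Of 20 fibroblast and matrix genes 10 rose and 1 fell (50% and 5%), with a median of 1. Of the list 5 rose and none fell with every library of the table in the fit. Postn, the gene of periostin, stood at 16288, 15008, 34127 and 34127 in the late libraries, against 2189, 1845, 9808 and 12147 in the early ones (log2 2.30 ± 0.27). The receptor gene Pdgfrb stood at 3252, 3185, 4357 and 4093, against 304, 254, 1250 and 1389 (2.60 ± 0.15), and Pdgfra, Mmp2, Lox, Col6a1, Lum, Dcn, Fap and Col1a1 rose by 2.11 to 1.11. All but Dcn lie above every early library. Vim, the gene of vimentin, stood at 29407, 29407, 34127 and 26500, against 34127, 44402, 21716 and 21716, and did not pass the test (0.03 ± 0.10). S100a4 was the member that fell (-1.11 ± 0.24).

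Among 8 mesenchymal transcription factors 2 rose (25%) and none fell, where 8.08% of all tested genes rose and 7.84% fell. Snai1, a repressor of E-cadherin, stood at 710, 807, 916 and 964 in the late libraries, against 204, 214, 304 and 236 in the early ones (log2 1.82 ± 0.20). Prrx1 stood at 6876, 6509, 8132 and 5672, against 2635, 2624, 3985 and 4532 (1.01 ± 0.19), and fell short of 2-fold without replicate 1 of day 12 (0.99), of day 18 (0.88) or of day 8 (0.96). Zeb1 and Zeb2 were also above every early library but short of 2-fold (0.90 and 0.98). Whether the same cells held epithelial and mesenchymal transcripts cannot be told from whole cultures. Of 11 contractile genes 3 rose, Ctgf (1.48), Cyr61 (1.46) and Tagln (1.13), and Acta2, the gene of smooth muscle actin, did not pass the test (-0.19 ± 0.22).

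Of 16 tested neural stem cell genes 3 rose (18.75%) and 1 fell (6.25%), where 8.08% of all tested genes rose and 7.84% fell. Another 6 of the list's 22 did not reach the level for testing, among them Olig1, Olig2, Hes5 and Bcan at 8 or lower in every library. Msi1, an RNA-binding protein of neural progenitors, stood at 55, 130, 161 and 153 in the late libraries, against 12, 12, 30 and 17 in the early ones (log2 2.66 ± 0.41). Prom1, which encodes CD133, stood at 3415, 3144, 2276 and 2248, against 465, 467, 1385 and 1519 (1.72 ± 0.17), and Sox9 at 223, 346, 510 and 442, against 163, 119, 118 and 131 (1.45 ± 0.20). Sox21 fell, to 16, 11, 7 and 13 against 107, 120, 76 and 46 (-2.66 ± 0.32). Sox1, an early neural factor, was highest on day 8 with 317 and 212, stood at 151 and 113 on day 12 and 29 and 36 on day 18, and rose by 2.39 in the first step and fell by 1.95 in the last. Nes, the gene of nestin, did not reach 2-fold (0.61 ± 0.16). The neuron list had 3 of 13 tested genes lower and none higher: Tubb3, the growth-associated Stmn2 (2258, 2397, 1367 and 1851 against 5533, 6510, 6162 and 5241; -1.60 ± 0.23) and Neurog2, at 1 or lower in the late libraries.

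Several signalling groups rose. Of 10 STAT3 targets and receptors of the LIF and IL-6 family 8 rose and none fell (80.0%, median 1.53), and all 10 had every late library above every early one. Over all tested genes 8.08% rose and 16.6% had every late library above every early one. Of the 10, 5 rose with every library of the table in the fit. Socs3, the feedback inhibitor of this pathway, stood at 916, 1192, 1432 and 1157 in the late libraries, against 150, 140, 416 and 415 in the early ones (log2 2.23 ± 0.15), and Osmr, the oncostatin M receptor gene, at 5078, 4064, 5366 and 5533, against 538, 581, 1821 and 2377 (2.20 ± 0.15). Il4ra, Junb, Bcl3, Pim1, Lifr and Il6st rose by 2.02 to 1.22, and Stat3 itself (0.90) and Cish (0.78) stayed under 2-fold.

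Of 15 feedback genes of the ERK pathway 7 rose (Dusp5, Dusp6, Spry1, Spry2, Spred1, Etv1 and Egr1) and 1 fell. The counts were 4 and 1 with every library of the table in the fit. By step, Dusp5, Dusp6, Spry1, Spry2, Spry4, Etv1 and Egr1 rose at day 12 over day 8, and none rose at day 8 over day 4 or at day 18 over day 12. Etv4 and Fosl1 fell at day 8 against day 4, and Fosl1 at day 18 against day 12. Spry1, an inhibitor of receptor signalling, stood at 3470, 3025, 3917 and 4176 in the late libraries, against 549, 496, 838 and 901 in the early ones (log2 2.42 ± 0.14). Dusp6, an ERK phosphatase gene, stood at 4276, 4532, 3294 and 3392, against 1542, 1539, 1291 and 1081 (1.51 ± 0.07), and the immediate early gene Egr1 at 5587, 6618, 6160 and 4851, against 1330, 1539, 2072 and 1821 (1.79 ± 0.20). Fosl1, the AP-1 subunit Fra-1, was the gene that fell (71, 137, 40 and 36 against 628, 716, 150 and 179; -2.40 ± 0.28).

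Interferon response genes had risen by day 8. Of 18 tested members 16 rose at day 8 over day 4 (median 2.06) and none fell. Oasl2, an antiviral gene, stood at 1821 and 2042 on day 8, against 114 and 167 on day 4, and Isg15, a ubiquitin-like modifier, at 426 and 589, against 30 and 35. By day 18 Oasl2 was at 497 and 787 and Isg15 at 84 and 170. Late against early, only Irf7 rose (370, 629, 156 and 248 against 18, 29, 284 and 438; log2 1.72 ± 0.53). That call was lost with every library of the table in the fit, also without the one that stands apart, and 2 members were called without replicate 1 of day 18. The day 8 count was 3 with every library and 14 without the one that stands apart. Of 10 genes of MHC class I presentation, Tap2 (2.01 ± 0.18), Psmb8 (1.53 ± 0.21) and H2-K1 (1.25 ± 0.14) rose and Psmb10 fell (-1.69 ± 0.22), and with every library of the table in the fit 1 rose and none fell.

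Energy and sterol metabolism changed in part. Of 15 glycolysis genes 5 rose and none fell, and they were transporters and single enzymes rather than the whole path. Only 3 rose with every library of the table in the fit. The glucose transporter gene Slc2a1 stood at 6160, 7157, 4388 and 5289 in the late libraries, against 727, 742, 1124 and 1264 in the early ones (log2 2.59 ± 0.13), and Slc2a3 at 1860, 2725, 2052 and 3087, against 223, 181, 530 and 443 (2.92 ± 0.18). Pfkp, Pgk1 and Pdk1 rose by 2.06, 1.26 and 1.14. Gapdh, Pkm, Ldha and Hk2 did not pass the test (0.11, -0.13, -0.15 and -0.26), and Eno1 lay just short of 2-fold. Of 14 cholesterol synthesis genes 6 fell and none rose, among them Idi1, an isomerase of the isoprenoid units (3896, 3416, 3144 and 3186 against 12150, 12929, 7159 and 6068; -1.42 ± 0.10). Dnmt1, the maintenance DNA methyltransferase gene, fell by 1.30 ± 0.08, the only one called of 7 DNA methylation enzymes, and none was called with every library of the table in the fit.

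Markers of other cell types that such cultures could hold were also measured. Keratinocyte genes were highest on day 8 by their median: 12 of 16 rose at day 8 over day 4 and none fell, 5 fell at day 12 against day 8, and late against early 3 rose and 4 fell. Krt17 stood at 10068 and 12547 on day 8, against 341 and 403 on day 4, and Sprr1a, a cornified envelope gene, at 6876 and 6618, against 651 and 538. By day 18 Sprr1a was at 1353 and 1240 and the terminal differentiation gene Lor at 9 and 12. The summed level of the 16 genes ran from 10194 to 23193 in late libraries and from 4440 to 34509 in early ones.

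In the macrophage and blood list, C1qa and C1qb were at 0 in all 8 libraries and Tyrobp and Fcer1g at 4 or lower. Of its 10 tested genes 2 rose and 2 fell. Cd68, a lysosomal protein also expressed outside macrophages, was the abundant one of these (252, 479, 312 and 350 against 50, 47, 58 and 57; log2 2.64 ± 0.25). The leukocyte gene Ptprc stood at 94, 101, 125 and 183 against 283, 305, 246 and 257, and Mrc1 at 527, 455, 311 and 380 against 686, 669, 414 and 345, neither past the test. The summed level of that list was 837 to 1141 late and 760 to 1224 early. Endothelial and endoderm lists had 1 riser each and no fallers, of 11 and 10 tested genes: Cdh5 (142, 152, 513 and 217 against 117, 124, 87 and 88) and Foxa2 (9, 10, 14 and 33 against 0, 1, 7 and 12). Of 6 tested trophoblast genes Tfap2c rose and Hand1 fell, of 9 tested Wnt targets Dkk1 rose and Znrf3 fell, and of 9 tested germline genes none changed. Over all tested genes 8.08% rose and 7.84% fell, so 1 call each way in lists this short does not set them apart from other genes. With every library of the table in the fit, 1 macrophage and blood gene rose and none fell, no endothelial gene was called and of the Wnt targets 1 fell and none rose. The part of other cell types in the results above was not tested.

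The order of the 4 days was the same as that of the levels in many of the genes that changed. Among genes that rose, 872 (54.7%) had day means in the order 4, 8, 12, 18 from low to high, against 11.5% of all tested genes, and among genes that fell 959 (62.0%) had the opposite order, against 13.9%. Since late against early chose these genes, the difference from all genes is a description. The highest day mean was that of day 18 for 74.7% and that of day 12 for 23.8% of the genes that rose. The lowest was that of day 18 for 79.3% of those that fell. The number of changes declined with each step: 2036 genes at day 8 against day 4 (1223 higher, 813 lower), 1503 at day 12 against day 8 (780 and 723) and 608 at day 18 against day 12 (248 and 360). The last count rests on single libraries, with 334 genes without replicate 1 of day 12, 924 without replicate 2 of day 12 and 364 without replicate 1 of day 18.

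Among genes with a mean of at least 500, those with the largest changes were listed for each step. In the first step Ifi202b, an interferon-inducible gene, stood at 735 and 712 on day 8 and at 0 in both day 4 libraries. Of the next ones Lcn2, Pou5f1, Col15a1 and Krt17 rose by 7.98, 7.01, 6.25 and 4.92, and the protocadherin gene Pcdhgc4, whose transcripts share exons with those of neighbouring genes, fell by 3.92 (52 and 41 on day 8, against 633 and 840 on day 4). Hic1, a transcriptional repressor, fell by 2.60 (243 and 239 on day 8, against 1580 and 1377 on day 4). In the second step Apoe (651 and 1221 on day 12, against 52 and 86 on day 8; log2 3.70) and Aldoc (3.63) rose, as did the retinoic acid hydroxylase gene Cyp26b1 (3.28) and Fmo2 (3.00), and Tubb3 fell by 2.96. In the third step C3 (5165 and 5241 on day 18, against 1471 and 1632 on day 12; 1.75), the lipoprotein lipase gene Lpl (1.68), Itm2a (1.53) and Marcks (1.46) rose, and Lama1 fell by 2.87, and a fall was also called for Krt90 (-2.50), for the water channel gene Aqp5 (-2.40) and again for Tubb3 (-2.42).

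The same late against early change was then compared between cocktails by an interaction, which tests the difference between 2 changes. It differed from that of BKM_Sox17, which has wild-type Sox17, in 435 genes (2.20%, with 1.16% more positive and 1.04% more negative in BKM_FNV). It differed from that of BKM_Sox2 in 1068 genes (5.41%, 2.77% and 2.65%) and from that of K_FNV in 1983 (10.1%, 5.18% and 4.87%). The 3 comparisons share the 8 BKM_FNV libraries. On its own, the late against early change was called in 2328 genes in BKM_Sox17 (11.8%, with 6.39% higher and 5.41% lower). It was called in 2012 in BKM_Sox2 (10.2%, 6.32% and 3.88%) and in 1214 in K_FNV (6.15%, 3.59% and 2.56%).

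Pou5f1 was far higher in BKM_FNV than in the other cocktails: its late libraries ran from 687 to 1850 in BKM_FNV, against 3 to 11 in BKM_Sox17, 0 to 1 in BKM_Sox2 and 6 to 43 in K_FNV. It is listed at 0 in all 4 early libraries of BKM_Sox17 and of BKM_Sox2, so no difference from their changes is given. Its change was larger in BKM_FNV than in K_FNV by 1.80 (limma, adjusted p = 0.0082). Early K_FNV libraries had it at only 1 to 5, so that difference depends in part on the 2 added before the logarithm. Of the 26 naive and core pluripotency genes, 7 rose and 1 fell late against early in K_FNV. The change was more positive in BKM_FNV than in BKM_Sox17, BKM_Sox2 and K_FNV for 6, 6 and 3 of the 26. It was more negative for 0, 3 and 4. Epcam ran from 1953 to 3762 in late BKM_FNV libraries, against 478 to 985 in BKM_Sox17, 174 to 309 in BKM_Sox2 and 76 to 189 in K_FNV. Its change was larger in BKM_FNV than in BKM_Sox2 by 3.61 and than in K_FNV by 1.79, and by 1.09 ± 0.36 than in BKM_Sox17, short of the test (adjusted p = 0.066). Of the 24 epithelial genes, 18 changed more upwards in BKM_FNV than in BKM_Sox2, 11 than in K_FNV and 3 (Krt18, Spint1 and Rab25) than in BKM_Sox17. The list also rose by day 8 in BKM_Sox2, where its median difference from day 4 was 1.56, then 0.96 and -0.28 on days 12 and 18. In BKM_Sox17 the medians of the 3 days were 1.65, 1.65 and 1.08. In K_FNV they were 0.08, 0.19 and 0.69, and in BKM_FNV 2.54, 2.55 and 2.45.

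Genes of replication licensing fell in 12 of 17 cases in BKM_FNV, against 9 in BKM_Sox17, 2 in BKM_Sox2 and 2 in K_FNV, and those of DNA synthesis in 19 of 24, against 16, 10 and 3. The difference from BKM_Sox17 was called for none of either list. That from BKM_Sox2 was more negative in BKM_FNV for 4 licensing and 6 DNA synthesis genes, and that from K_FNV for 5 and 10. On its own, the change of Mcm5 was -2.69 in BKM_FNV, -2.13 in BKM_Sox17, -1.43 in BKM_Sox2 and -1.43 in K_FNV. It differed from that of BKM_Sox2 and K_FNV by -1.26 each, and from that of BKM_Sox17 by -0.56 ± 0.23, short of the test. Of the 21 mitosis genes, 18 fell in BKM_FNV, 20 in BKM_Sox17, 18 in BKM_Sox2 and 9 in K_FNV, and the difference passed the test for 1 gene in each comparison (Cenpa, Aurka and Aurkb). Of the 19 ribosome and Myc target genes 18 fell in BKM_FNV, against 6 in BKM_Sox17, 2 in BKM_Sox2 and 1 in K_FNV, but the difference was called for none, 5 and 13 of them, with medians of -0.62, -0.73 and -1.15.

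The delivered factors themselves took different courses, and their part in the comparisons above was not tested. Klf4, present in all 4, fell by 2.14 in BKM_FNV, against changes of -0.91 in BKM_Sox17, -0.71 in BKM_Sox2 and -0.81 in K_FNV, and all 3 differences were called (-1.22, -1.43 and -1.33). Sox17 fell by 2.10, against -1.07 in BKM_Sox17 (4579 to 10522 late, 9217 to 26505 early) and -0.50 in K_FNV (10769 to 15011 late, 12929 to 21719 early), with differences of -1.03 and -1.60. For Pou3f4 the difference from BKM_Sox17 was -0.14 ± 0.27 and did not pass the test, and that from BKM_Sox2 was -1.73.

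The 5 largest differences each way from BKM_Sox17 included 2 glucose transporters and 3 keratin genes, among genes averaging at least 500 in BKM_FNV. That limit was set on BKM_FNV libraries alone, so genes abundant only in another cocktail could not be named by it. Slc2a1 and Slc2a3 rose by 2.59 and 2.92 in BKM_FNV, against changes of 0.41 and 0.77 in BKM_Sox17 (differences 2.18 and 2.16). Of the 15 glycolysis genes 5 had a larger change in BKM_FNV than in BKM_Sox17, and 5 than in BKM_Sox2 (2.20% and 5.41% of all genes differed, in either direction), and 2 had a larger and 2 a smaller one than in K_FNV. Krt18 rose by 3.19, against changes of 1.18 in BKM_Sox17, -0.42 in BKM_Sox2 and -1.21 in K_FNV, and all 3 differences were called. The other keratin genes, Krt90 and Krt16, had more negative changes in BKM_FNV than in BKM_Sox17, by -2.20 and -1.98. Apoe rose by 4.74, against changes of 2.31 in BKM_Sox17, 1.40 in BKM_Sox2 and 0.64 in K_FNV. In the other direction Tubb3 fell by 4.00, against -2.13, -1.01 and -1.88 in BKM_Sox17, BKM_Sox2 and K_FNV, and Lama1 fell by 2.87 but changed by 1.28 in BKM_Sox2.

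**Figure D4:**
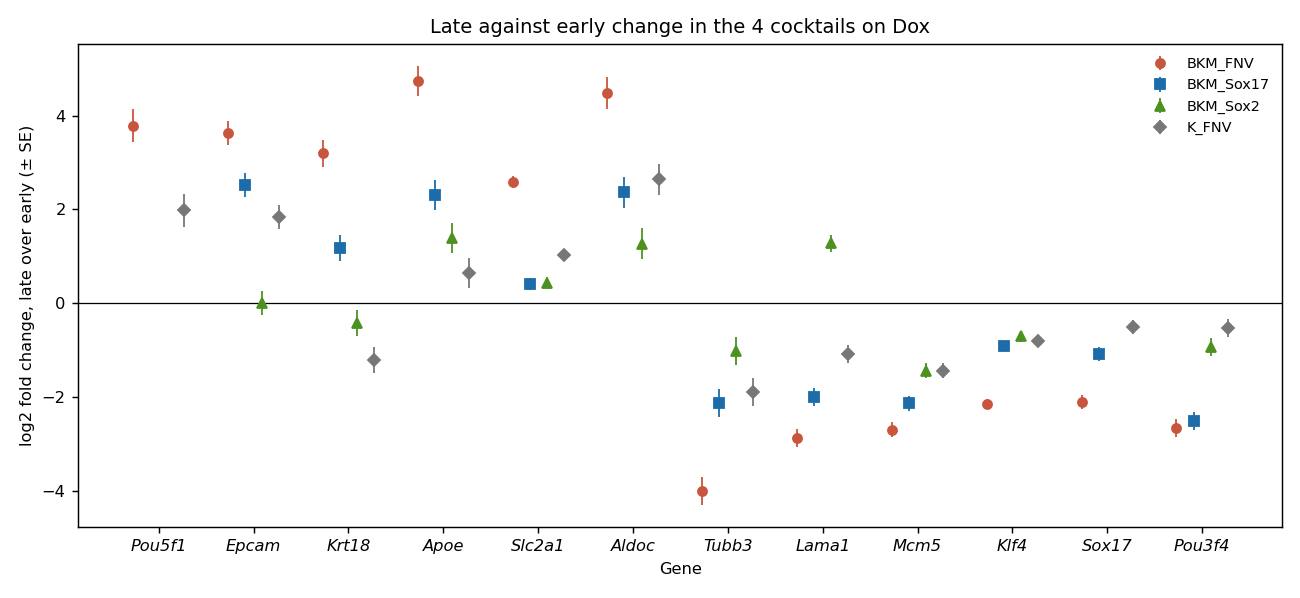
Log2 fold change of late over early libraries ± SE (vertical axis) for 12 genes in the 4 cocktails on Dox, with BKM_FNV leftmost at each gene. No point is drawn where a gene is listed at 0 in all 4 early libraries of a cocktail (Sox17 in BKM_Sox2, and Pou5f1 in BKM_Sox17 and BKM_Sox2). Krt18, Apoe and Slc2a1 stand higher and Klf4 and Tubb3 lower in BKM_FNV than in each of the others.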

How the data were processed

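Poly(A) RNA of transduced mouse fibroblasts was sequenced, and the authors deposited normalised tag counts rounded to whole numbers, treated here as a score and not as counts. Bowtie2 2.0, RSEM and the mm10 build are named in the submitters' processing notes; the normalisation is not given in the sources used here. Depth and its precision are unknown. Of the table's columns of values, 1 matched no sample and was not used.

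Groups and days came from the labels. A gene was tested where 2 or more of the 32 on-Dox libraries of the 4 cocktails had it at 10 or higher (19728 of 21241 genes). log2(value + 2) was fitted in limma 3.58.1 (R 4.3.3) with 16 groups and 16 residual degrees of freedom. Late against early is the mean of days 12 and 18 minus the mean of days 4 and 8. A gene was called at a Benjamini-Hochberg adjusted p under 0.05 over all tested genes and a 2-fold change. The procedure was tested on simulated data. Gene coordinates and promoters are those of RefSeq (GRCm38.p6). Coordinates were matched by Ensembl gene identifier, or by symbol where that found none, and promoters by symbol.

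The members and the gene lists were chosen with earlier results of these data known. Genes were named as the 10 largest changes each way whose late and early libraries do not overlap and whose mean reached 100 in a group, 3 each way per step, 5 each way per cocktail comparison, and up to 4 called and 2 uncalled members per list. Most of the largest were at 0 in some libraries. Therefore the 15 largest each way (5 per step or cocktail comparison) with a mean of at least 500 over the BKM_FNV libraries were added. They were added after the values were seen, as were further list members. Alternatives were other pseudocounts, filters, scalings and sets of libraries, a replicate block and each BKM_FNV library left out. A few genes that these rules name are not reported here.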

Additional observations from a re-analysis of the deposited data

Results flagged for a closer look

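For 41 pairs of a gene and a cocktail, the late against early change differed between BKM_FNV and that cocktail by the interaction test. The limits were an adjusted p under 0.05 (limma) and a 2-fold difference. Genes named by rule were checked only against the cocktail they were named for, and markers and delivered factors against every cocktail. Genes at 0 in any library concerned were left out. Other such pairs exist: Slc2a1 also differed from BKM_Sox2 (2.15) and K_FNV (1.57), and Krt16 from BKM_Sox2 (-2.12). Of the 41, 17 differences were positive (a more positive change in BKM_FNV) and 24 negative. All are on the log2 scale, and no cause was tested. A gene that is close to 0 in some libraries, but not at 0, passes this rule.

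Against BKM_Sox17, the difference was 2.42 for Apoe, 2.18 for Slc2a1, 2.16 for Slc2a3, 2.11 for Aldoc and 2.02 for Krt18. It was -5.46 for Olfr110, -4.93 for C530043A13Rik, -2.2 for Krt90, -1.98 for Krt16, -1.87 for Tubb3, -1.79 for Apod, -1.67 for Rgs5, -1.22 for Klf4 and -1.03 for Sox17.

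Against BKM_Sox2, the difference was 6.4 for Gm10696, 6.26 for Cnbd1, 3.61 for Epcam, 3.61 for Krt18, 3.34 for Apoe and 3.21 for Aldoc. It was -4.14 for Lama1, -2.98 for Tubb3, -1.73 for Pou3f4, -1.43 for Klf4 and -1.26 for Mcm5.

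Against K_FNV, the difference was 4.4 for Krt18, 4.1 for Apoe, 4.09 for Pcdhgc4, 3.87 for Vmn2r76, 1.8 for Pou5f1 and 1.79 for Epcam. It was -3.53 for Zfp980, -2.87 for Mthfd2, -2.68 for Akr1c18, -2.62 for Cd55, -2.61 for Nup210, -2.12 for Pou3f4, -1.6 for Sox17, -1.33 for Klf4, -1.29 for Myc and -1.26 for Mcm5. Brn4 and c-Myc were not delivered in K_FNV, so for Pou3f4 and Myc a delivered factor is set against the cell's own gene. Pou3f4 ran from 14 to 18 in late and 19 to 31 in early K_FNV libraries. Some of these genes varied widely within a K_FNV group. Zfp980 ran from 1 to 490 in the early libraries, Vmn2r76 from 11 to 454 and Pcdhgc4 from 31 to 1308 in the late ones. The 3 comparisons share the BKM_FNV libraries.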

How the results depend on the processing

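With every library of the table in the fit, the number of genes called was 1737 for late against early (3142 reported), 637 for day 8 against day 4 (2036), 366 for day 12 against day 8 (1503), 52 for day 18 against day 12 (608), and 54, 208 and 510 for the differences from BKM_Sox17, BKM_Sox2 and K_FNV (435, 1068 and 1983). Without the library that stands apart, replicate 1 of BKM_Sox2 at day 24, these counts were 3190, 1986, 1491, 632, 436, 1034 and 1955. Day 18 against day 4 alone called 4737 genes. With each BKM_FNV library left out in turn, the counts ran from 2952 to 3282 for late against early, 1677 to 2049, 1197 to 1794 and 334 to 924 for the 3 steps, and 355 to 502, 831 to 1327 and 1757 to 2143 for the 3 cocktails. Only the last step moved by over 1.5 times, to 334 without replicate 1 and 924 without replicate 2 of day 12, and to 364 without replicate 1 of day 18.

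Replicate numbers do not pair the libraries: the replicate differences of 2 days correlated between -0.049 and 0.0428. With the replicate number as a block the counts were 3150, 1994, 1450, 563, 390, 1031 and 1954. Gene by gene, only the late against early change was refitted, for genes named by that comparison, by a list or as markers. None of the 134 of them that were called reversed in any refit. The day steps, the cocktail differences and day 18 against day 4 were not rechecked for single genes. Of the 134 genes, 32 were not called with every library in the fit and 14 without some single library. Leaving out, after the data were seen, the genes at 0 in one library and at 100 or more in another gave 3032.

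Depth is unknown, and recurring top values limit changes of the most abundant genes.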
